A study of Arvicanthis niloticus with 7 samples.

Results

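The proteasome subunits were examined in RNA labelled as liver from male Nile rats (NRs, *Arvicanthis niloticus*), African grass rats that develop type 2 diabetes mellitus on diets rich in carbohydrate. Members were all probes of an Illumina mouse BeadChip whose annotated gene symbol begins with *Psma* to *Psmg* followed by a digit. They comprised 67 probes for 45 of the 16110 gene symbols on the array, namely 43 subunits and assembly chaperones together with *Psmc3ip* and *Psme3ip1*, which encode partner proteins and not subunits. All rats ate a high-carbohydrate diet (70% of energy) for 4 weeks from the age of 3 weeks. The 4 control arrays came from rats given this diet alone. The 3 palm fruit juice (PFJ) arrays came from rats given the same diet with PFJ, a phenolic-rich extract of the oil palm fruit, at 5.4 g of gallic acid equivalents per kg of diet. The RNA samples were chosen for their integrity within each condition and are treated by the study as biological replicates, but the labels do not tie an array to an animal.

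The proteasome is the large protease that degrades proteins tagged with ubiquitin. Its barrel-shaped core is built of rings of alpha subunits, which gate the entrance, and of beta subunits, some of which cut peptide bonds. A regulatory cap binds to the ends of the barrel. The ATPase subunits of its base unfold the substrate, the non-ATPase subunits of its base and lid receive it and remove ubiquitin, and alternative activators can take the place of the cap. Interferon replaces the standard catalytic subunits with immunoproteasome subunits, which favour peptides for presentation by major histocompatibility complex class I molecules.

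Control replicates 3 and 4 stood apart from the other 5 arrays. Over the 3734 genes tested, their mutual correlation was 0.986, that of either with any other array 0.759 to 0.778, and that among the other 5 arrays 0.955 to 0.979 (Pearson correlations across genes, which are not independent replicates and share array and normalisation). Of 10 tested hepatocyte markers, 9 were lower on these 2 arrays than on every other, where the share of all genes was 30.2%. The exception, *Ttr*, was detected on the 3 PFJ arrays alone. *Apoa2*, *Cps1* and *Serpinc1* were not detected on these 2 arrays and were kept through the others. The log2 of the summed signal of the 10 markers was 13.06 and 13.38 against 18.44 to 18.56. Both tested erythroid markers stood apart too, in opposite directions. *Alas2* was below all other arrays, at 10.10 and 10.56 against 13.68 to 14.53. *Slc4a1* was above them, at 10.47 and 9.50 against 5.62 to 6.68. All 3 tested kidney markers were higher, with a log2 summed signal of 16.25 and 16.19 against 11.86 to 12.36. The share of all genes above was 26.8%. Of 16 kidney markers with a probe, 8 were detected on these 2 arrays and 3 on each of the others. *Slc22a6*, *Slc22a8*, *Kap*, *Lrp2*, *Aqp2*, *Calb1*, *Pvalb* and *Slc5a2* were detected on no array. *Umod*, which encodes the kidney tubule protein uromodulin, had log2 values of 16.01 and 16.03 on control replicates 3 and 4. It was not detected on the others and so was not among those tested. The defining hepatocyte gene *Alb* was not detected on any of the 7 arrays, nor were *Fgb* and *Apoh*. The label liver was thus not borne out by the markers on these 2 arrays, and they are called control replicates 3 and 4 as labelled. Comparisons between PFJ and control are given with all 7 arrays and, without these 2, with 5. The fits on 5 arrays use values normalised over all 7.

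Proteasome probes were detected more often than the probes of the whole array. Values are log2 normalised signals, and a probe was detected when its detection p against the negative control beads was under 0.01. Probes had to be detected on 3 or more of the 7 arrays to be kept. Of the 67 proteasome probes, 33 (49.3%) were kept, against 19.9% of all probes with a symbol. Another 31 (46.3%) were detected on no array, against 74.9% of all probes with a symbol. The kept probes covered 27 of the 45 genes, and the brightest kept probe stood for its gene.

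By class, 3 of 7 core alpha genes, 7 of 10 core beta genes, 4 of 6 ATPase genes, 9 of 13 non-ATPase genes, 2 of 4 activator genes and 2 of 3 assembly chaperone genes were kept. No level is given here for the alpha ring genes *Psma1*, *Psma2*, *Psma5* and *Psma6*, nor for the beta genes *Psmb6*, *Psmb8* and *Psmb9*. The same holds for the ATPase genes *Psmc1* and *Psmc6*, the non-ATPase genes *Psmd1*, *Psmd4*, *Psmd8* and *Psmd13*, the activators *Psme2* and *Psme3*, and the chaperone *Psmg1*. *Psmc3ip* and *Psme3ip1* were not kept either. The probes were designed on mouse transcripts. All 45 symbols are also gene symbols of the NR annotation by RefSeq (assembly mArvNil1.pat.X), where *Psma8*, *Psmb11*, *Psmd3*, *Psmf1* and *Psmg4* are annotated too but have no probe under the rule. For 12 genes, 1 probe was kept while another probe of the same gene was detected on no array, so that a missing signal does not give the level of a transcript. Whether undetected probes match the NR sequence was not tested.

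**Figure D1:**
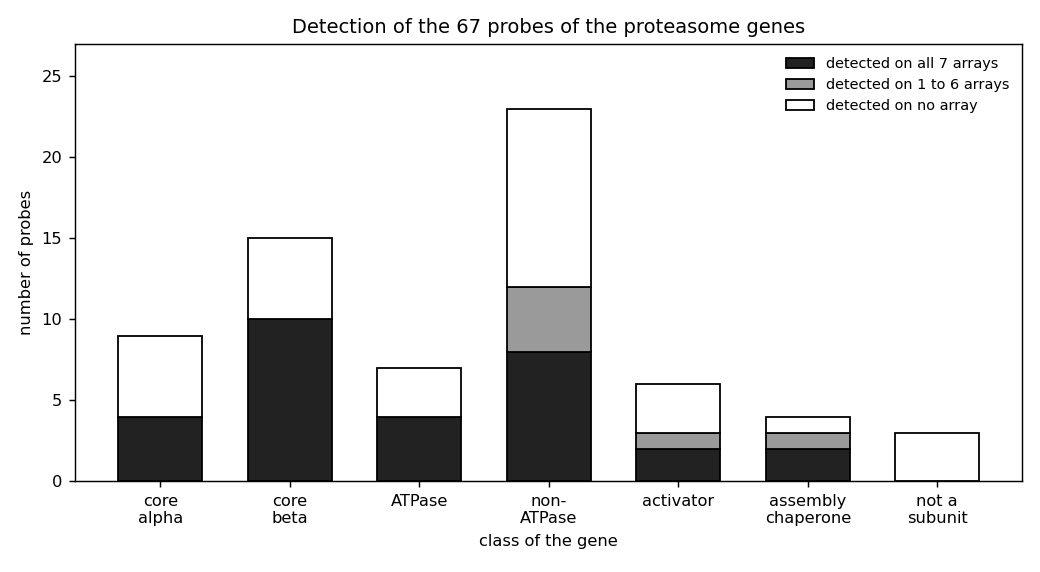
Number of proteasome probes (vertical axis) by class of the gene (horizontal axis), stacked by detection. Of the 15 core beta probes, 10 were detected on all 7 arrays and 5 on none, whereas 11 of the 23 non-ATPase probes were detected on none.

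No proteasome gene passed the adjusted test between PFJ and control. The log2 fold change (PFJ over control) on the 7 arrays was above 0 for 14 of the 27 genes and below 0 for 13, where 52.3% of all tested genes were positive. The median was 0.01 over the proteasome genes and 0.03 over all genes, and single genes ranged from -0.67 (*Psmg2*) to 0.78 (*Psmd11*). None passed an adjusted p of 0.05 from limma, nor did any of the 3734 genes (0%), and the lowest adjusted p of a proteasome gene was 0.561. Before adjustment, 0 proteasome genes were higher with PFJ at p under 0.05, where the share of all genes was 2.17%, and 1 gene, *Psmd2*, was lower, where the share of all genes was 2.6%. Complete separation of the groups was found for 1 gene, *Psmb2*, which was lower on all 3 PFJ arrays than on all 4 control arrays, and no gene was higher on all 3. These counts are for the brightest probe of each gene, and a second kept probe of *Psma7* was higher on all 3 PFJ arrays. The shares over all genes were 3.62% and 3.45%. An exact two-sided permutation test of a single gene with 3 arrays against 4 cannot give a p below 0.0571.

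Without control replicates 3 and 4, 11 of the same 27 genes had a positive log2 fold change and 16 a negative one, where 47.2% of all genes were positive. The median was -0.07 for the proteasome genes and -0.01 for all genes. Before adjustment, at p under 0.05, 0 genes were higher (1.53% of all genes) and 2 were lower, *Psmd2* and *Psme4* (1.82% of all genes), and none passed the adjusted threshold of limma. *Psme4* was detected on 3 control arrays but 1 PFJ array, so that it was kept mainly through the group where it was higher and its place in this count lends no support. The sign turned for some genes. The 7 genes *Psma3*, *Psmb10*, *Psmb3*, *Psmc3*, *Psmd11*, *Psmd6* and *Psme1* were positive on 7 arrays and negative on 5, and the 4 genes *Psmb1*, *Psmc4*, *Psmd10* and *Psmg3* were the reverse. For *Psme1* the sign depended on the probe, since a second probe was positive on 5 arrays too.

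**Figure D2:**
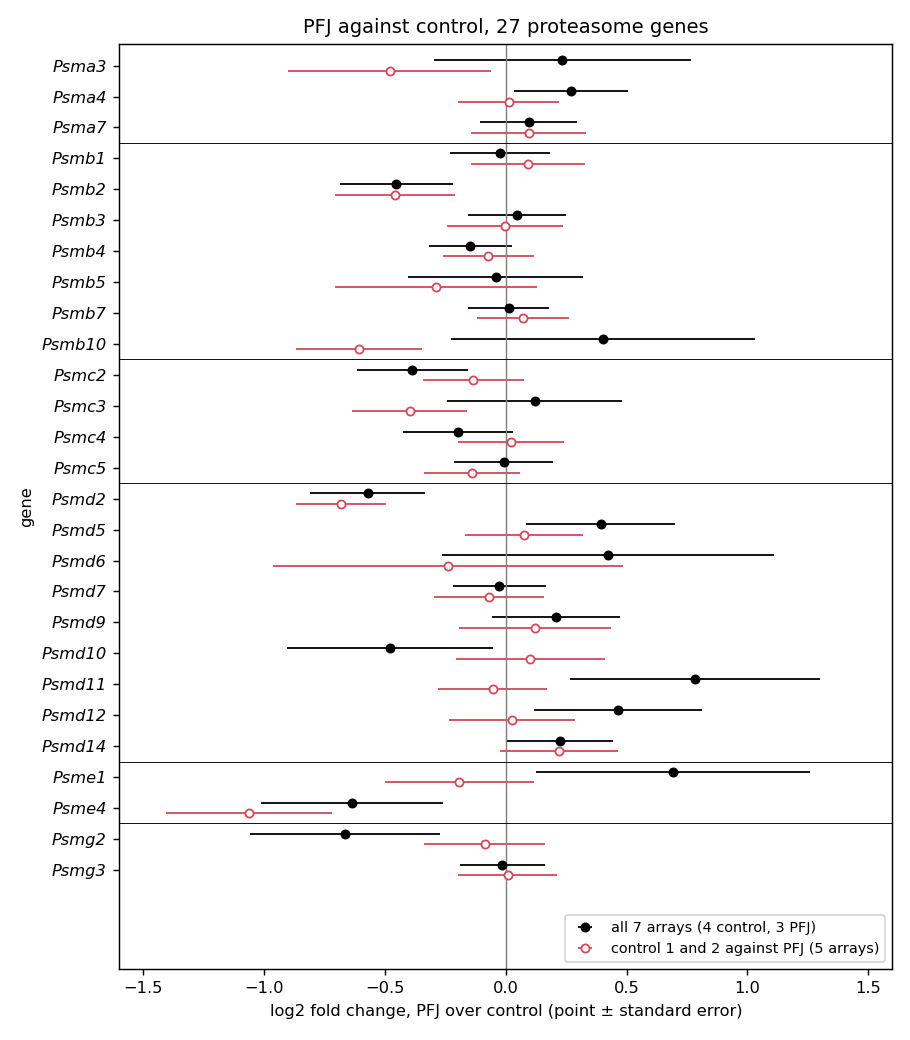
Log2 fold change of PFJ over control (horizontal axis, point with standard error) for the 27 proteasome genes (vertical axis), on all 7 arrays (filled) and without control replicates 3 and 4 (open). *Psmd11* moved from 0.78 to -0.05 and *Psme1* from 0.69 to -0.19 on the probe shown, while *Psmd2* stayed below 0 in both fits.

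Among the core alpha genes, whose products form the outer rings, the median log2 fold change was 0.23 over 3 genes, and none passed the test. *Psma4* had log2 values of 13.76, 13.99, 13.25 and 13.47 on control replicates 1 to 4 and 13.70, 13.99 and 13.98 on PFJ replicates 1 to 3. The PFJ values lay near those of control replicates 1 and 2 and above control replicates 3 and 4. The difference between the groups was 0.27 on the log2 scale (standard error 0.24) with 7 arrays and 0.01 with 5. For *Psma3* the values were 8.67, 8.58, 7.31 and 7.08 in controls and 8.37, 8.74 and 7.33 with PFJ. Both groups thus held high and low arrays, since PFJ replicate 3 lay near control replicates 3 and 4. *Psma7* read 12.30, 12.76, 12.46 and 12.61 in controls and 12.59, 12.45 and 12.84 with PFJ, and the groups overlapped. PFJ minus control was 0.10 on 7 arrays and 0.09 on 5. A second kept probe of *Psma7* read 9.87, 10.12, 9.63 and 9.61 in controls and 10.13, 10.16 and 10.17 with PFJ. On that probe the groups did not overlap, with control replicates 3 and 4 lowest and control replicate 2 close to the PFJ arrays, and the difference was 0.35 on 7 arrays and 0.16 on 5.

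The core beta genes include the catalytic subunits. Of the standard ones, *Psmb5* (chymotrypsin-like activity) and *Psmb7* (trypsin-like activity) were kept. *Psmb7* had the narrowest range of the 27 genes, 13.48, 13.62, 13.68 and 13.66 in controls and 13.51, 13.66 and 13.69 with PFJ. The groups differed by 0.01 on the log2 scale, with a 95% confidence interval from -0.39 to 0.41, and by 0.07 on 5 arrays. A second kept probe of *Psmb7* differed by -0.07 on 7 arrays and by -0.13 on 5, so that the sign depended on the probe. *Psmb5* read 10.41, 11.13, 10.27 and 10.28 in controls and 10.30, 11.18 and 9.96 with PFJ. Control replicate 2 and PFJ replicate 2 were the high arrays of their groups, and the log2 fold change of -0.04 had a 95% confidence interval from -0.90 to 0.81. On 5 arrays it was -0.29.

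Of the immunoproteasome catalytic subunits, *Psmb10*, the counterpart of *Psmb7*, was kept. It had log2 values of 10.50, 10.61, 8.27 and 8.79 on control replicates 1 to 4 and 10.12, 10.18 and 9.53 on PFJ replicates 1 to 3. Control replicates 3 and 4 were the lowest arrays, and the 3 PFJ arrays lay between them and the other controls. Controls had a mean of 9.54 ± 1.19 (SD, n = 4), compared with 9.95 ± 0.36 (SD, n = 3) for PFJ. PFJ exceeded control by 0.40 on the log2 scale (standard error 0.63) on 7 arrays, while the difference on 5 was -0.61 (standard error 0.26, unadjusted p = 0.059 from limma). A second kept probe of *Psmb10* had a difference of 0.40 between the group means on 7 arrays and of -0.66 on 5.

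The other beta genes encode structural subunits that do not cut. *Psmb2* was the gene whose groups separated, with 12.42, 13.03, 12.45 and 12.98 in controls against 12.13, 12.34 and 12.32 with PFJ. On 7 arrays the difference was -0.45 (standard error 0.23), with an adjusted p of 0.561 from limma, and on 5 arrays -0.46. A second bright probe of *Psmb2* disagreed. It read 12.36, 10.55, 12.88 and 12.36 in controls and 13.13, 12.17 and 13.11 with PFJ, a difference in the other direction of 0.76 on 7 arrays and 1.35 on 5, with control replicate 2 low on 1 probe and high on the other. The direction for *Psmb2* is therefore that of a probe and not settled for the gene. *Psmb4* read 14.29, 14.43, 14.43 and 14.59 in controls and 14.36, 14.29 and 14.21 with PFJ. The groups overlapped, and PFJ minus control was -0.15 (standard error 0.17) on 7 arrays and -0.07 on 5. *Psmb1* and *Psmb3* had log2 fold changes of -0.02 and 0.05 on 7 arrays and of 0.09 and -0.004 on 5.

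The ATPase genes encode the ring that unfolds substrates. Their median log2 fold change was -0.10 over 4 genes. *Psmc2* read 14.67, 15.02, 15.32 and 15.38 in controls and 14.72, 14.81 and 14.61 with PFJ. Control replicates 3 and 4 were the high arrays, and PFJ minus control was -0.39 (standard error 0.23) on 7 arrays and -0.14 on 5. *Psmc3* lay lower on these 2 arrays, at 10.62, 10.76, 9.52 and 9.78 in controls and 10.57, 10.31 and 9.99 with PFJ. *Psmc4* read 12.24, 12.49, 12.72 and 12.89 in controls and 12.39, 12.17 and 12.59 with PFJ, with control replicates 3 and 4 highest. PFJ minus control was -0.20 on 7 arrays and 0.02 on 5, and that of *Psmc5* was -0.01 and -0.14.

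The non-ATPase genes held the lowest p-value. *Psmd2*, a scaffold of the base that receives ubiquitin shuttle proteins, had log2 values of 7.41, 7.57, 7.66 and 6.86 on control replicates 1 to 4 and 6.87, 6.74 and 6.80 on PFJ replicates 1 to 3. The PFJ arrays lay close together, and control replicate 4 overlapped with them. These values lie near background, since the lowest detected values on PFJ replicates 1 to 3 were 6.39, 6.38 and 6.52. Controls averaged 7.38 ± 0.36 (SD, n = 4), and the PFJ arrays 6.80 ± 0.06 (SD, n = 3). PFJ minus control was -0.57 (standard error 0.24, unadjusted p = 0.047, adjusted p = 0.561 from limma) on 7 arrays. On 5 arrays it was -0.68 (standard error 0.19, unadjusted p = 0.010, adjusted p = 1.00 from limma). A second probe was detected on control replicate 3 alone. It differed by -0.68 on 7 arrays and by -0.55 on 5, the latter from undetected values only, so that it lends no support. With single arrays left out, the unadjusted p of *Psmd2* stayed under 0.05 in the fit without control replicate 4 alone, and the difference ran from -0.74 to -0.48.

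In the lid, which removes ubiquitin, 5 genes were kept, with a median log2 fold change of 0.42 on 7 arrays and -0.05 on 5. *Psmd11*, a scaffold of the lid, read 9.21, 8.95, 7.43 and 7.37 in controls and 9.20, 9.10 and 8.77 with PFJ. Control replicates 3 and 4 were the low arrays, and the PFJ values were close to those of control replicates 1 and 2. *Psmd6*, another lid scaffold, had 7.58, 7.73, 6.16 and 6.50 in controls and 8.25, 8.12 and 5.86 with PFJ. It was not detected on control replicate 3 or PFJ replicate 3 and had the widest range of the 27 genes, 2.39. *Psmd14*, the deubiquitinase of the lid, differed by 0.22 (standard error 0.22) on 7 arrays and 0.22 on 5, and its partner *Psmd7* by -0.03 and -0.07. The chaperones of base assembly in this class, *Psmd5*, *Psmd9* and *Psmd10*, had log2 fold changes of 0.39, 0.21 and -0.48 on 7 arrays and of 0.08, 0.12 and 0.10 on 5.

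Of the activators, *Psme1*, an interferon-inducible subunit of the ring that opens the core without ATP, read 10.14, 10.25, 8.52 and 8.33 in controls and 10.08, 10.43 and 9.48 with PFJ. As with *Psmb10*, control replicates 3 and 4 were lowest and PFJ replicate 3 came next. PFJ minus control was 0.69 (standard error 0.57) on 7 arrays and -0.19 (standard error 0.31) on 5. A second kept probe differed by 0.96 on 7 arrays and by 0.11 on 5, and it was the brighter one over those 5 arrays. *Psme4*, a large nuclear activator, had 7.04, 7.28, 6.48 and 6.14 in controls and 5.70, 6.72 and 5.86 with PFJ. It was detected on control replicates 1 to 3 and on PFJ replicate 2 alone, so that it was kept mainly through the control arrays and its lower values lie near background. The difference was -0.64 (standard error 0.38) on 7 arrays and -1.06 (standard error 0.34, unadjusted p = 0.021, adjusted p = 1.00 from limma) on 5.

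The assembly chaperones help the alpha ring to form. *Psmg2* read 9.48, 9.51, 10.58 and 10.72 in controls and 9.65, 9.03 and 9.56 with PFJ. Control replicates 3 and 4 were the high arrays, and the other 5 overlapped. PFJ minus control was -0.67 (standard error 0.39) on 7 arrays and -0.09 on 5. *Psmg3* read 7.10, 7.42, 7.39 and 7.21 in controls and 7.36, 7.17 and 7.27 with PFJ. The groups overlapped, with a log2 fold change of -0.01 on 7 arrays and 0.01 on 5.

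Larger differences were found between control replicates 3 and 4 and the other 5 arrays, given here as a description with no test because these arrays are no group of the study. Both arrays lay below all others for 8 of the 27 genes, where the share of all genes was 30.2%, and above all others for 4, where it was 26.8%. The proteasome genes thus did not exceed the background in either direction. With the arrays scaled to equal medians the counts were 4 below and 4 above, and the shares of all genes were 18.2% and 38.1%. In whole tissue, fewer cells of a type and less RNA per cell cannot be told apart. The hepatocyte, kidney and erythroid markers given above also differed on these arrays, the erythroid ones in opposite directions. Their part in the differences of the proteasome genes was not tested.

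The genes below all others were *Psmb10*, *Psme1*, *Psmd11*, *Psma3*, *Psmd12*, *Psmc3*, *Psmd5* and *Psma4*. The mean of control replicates 3 and 4 was 3.16-fold lower than that of the other 5 arrays for *Psmb10*, 3.14-fold for *Psme1* and 3.12-fold for *Psmd11*. The second probes of *Psmb10* and *Psme1* were lower by log2 differences of -1.73 and -1.77, close to the -1.66 and -1.65 of the first. The second kept probe of *Psmd12* differed by -0.32 against -0.89 and was lowest on PFJ replicate 3, so that *Psmd12* left this group when the kept probes of a gene were averaged. *Psmd12*, a lid scaffold, read 10.57, 10.10, 9.71 and 9.20 in controls and 10.27, 10.66 and 10.13 with PFJ. With scaling to equal medians, *Psmb10*, *Psme1*, *Psmd11* and *Psma4* remained below all others. With the authors' normalised values, *Psma3* and *Psmd5* left the group and *Psmb4* and *Psmb7* joined it.

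The genes above all others were *Psmg2* (2.31-fold), *Psmd10* (2.14-fold), *Psmc2* (1.5-fold) and *Psmc4* (1.35-fold). *Psmd10*, the base chaperone also known as gankyrin, read 7.36, 7.83, 8.55 and 8.96 in controls and 7.29, 8.12 and 7.68 with PFJ. With scaling to equal medians, *Psmg2*, *Psmd10* and *Psmc4* remained above all others, *Psmc2* did not and *Psmg3* joined them. With the authors' normalised values *Psmc2* did not remain either. The remaining 15 genes lay on neither side, among them *Psmb7*, *Psma7* and *Psmd7*, whose mean differences were 0.08, -0.06 and -0.05. The second probe of *Psma7*, however, lay below all others on these 2 arrays, with a difference of -0.47.

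**Figure D3:**
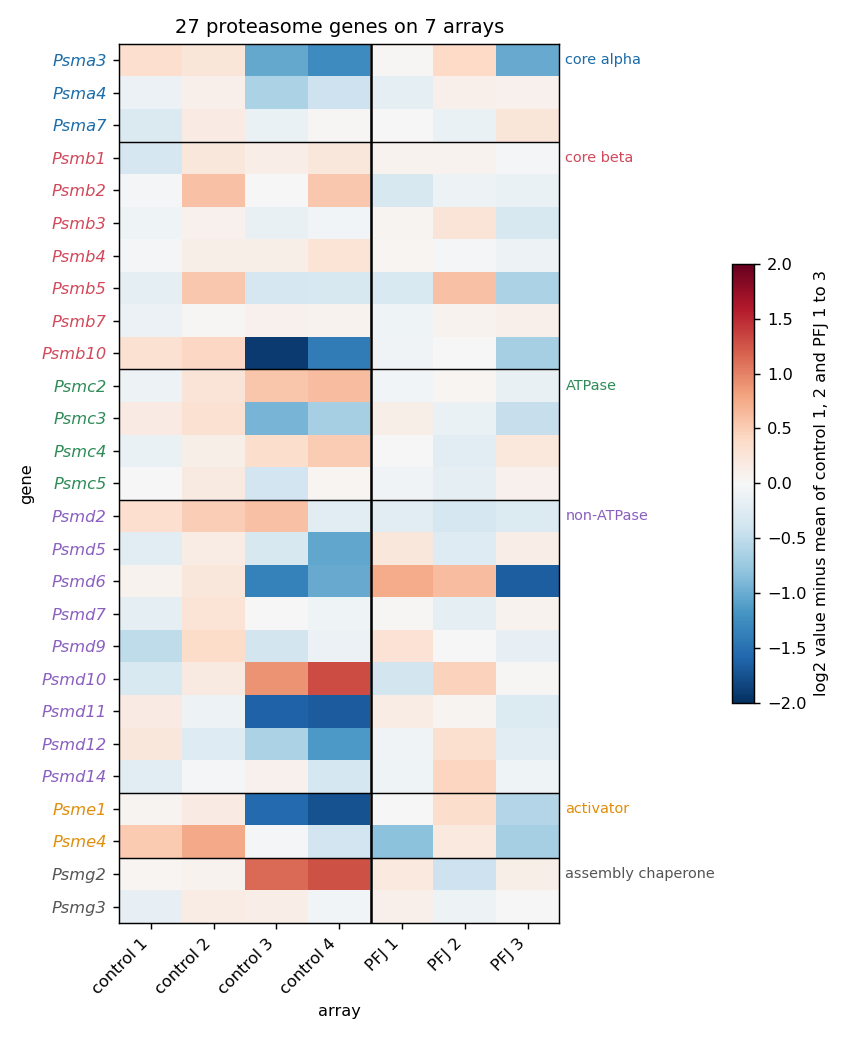
Log2 value of each of the 27 proteasome genes (vertical axis, by class) on each array (horizontal axis), minus the mean of control replicates 1 and 2 and PFJ replicates 1 to 3. Control replicates 3 and 4 are lower for *Psmb10*, *Psme1* and *Psmd11* and higher for *Psmg2* and *Psmd10*, while *Psmb7* and *Psmg3* are near 0 on all arrays.

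**Figure D4:**
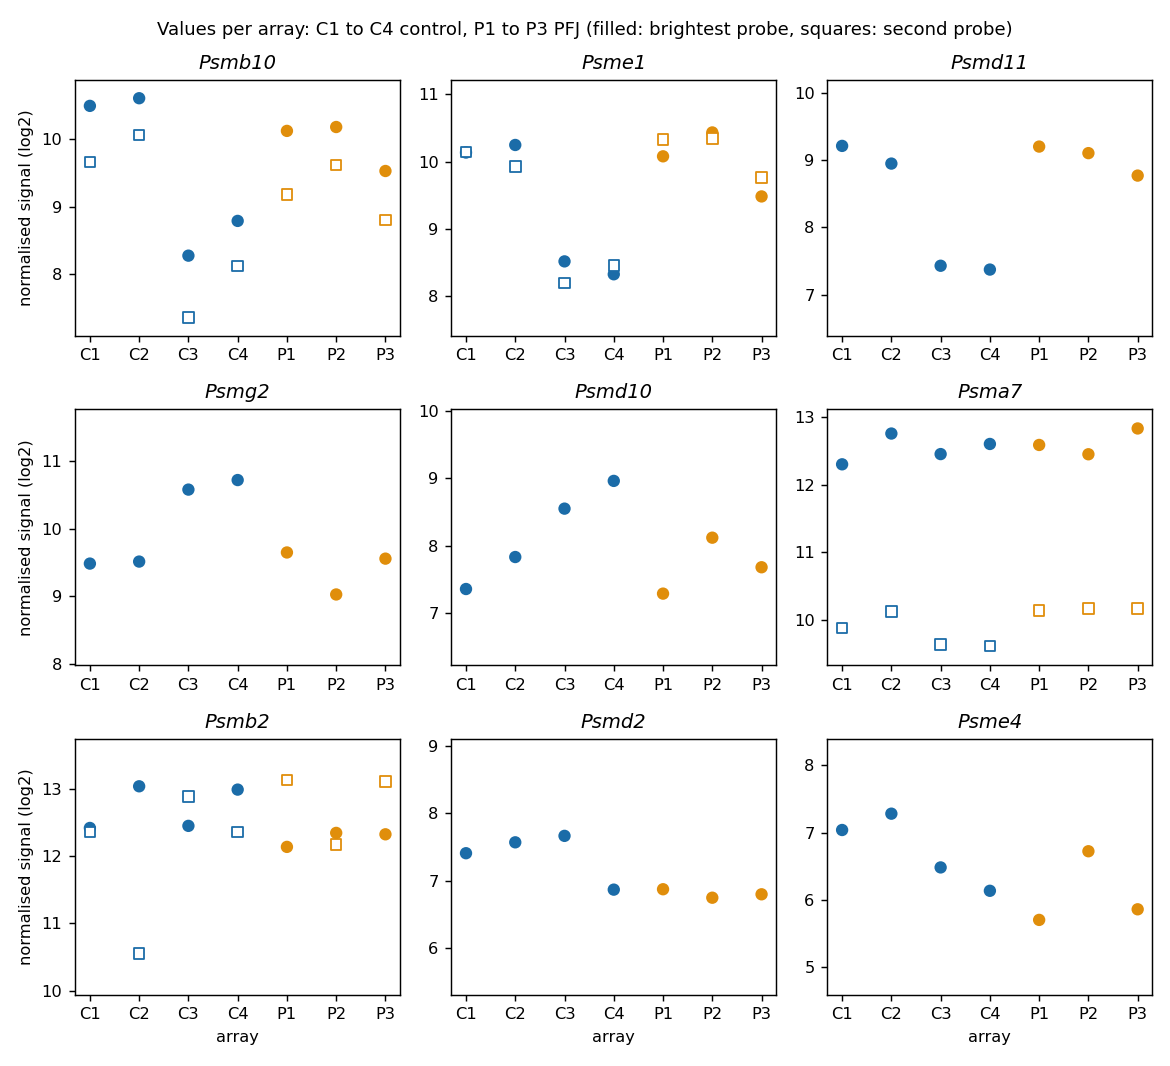
Log2 normalised signal (vertical axis) on each array (horizontal axis) for 9 genes, with control arrays in blue and PFJ arrays in orange. Filled points show the brightest probe and squares a second kept probe. The probes of *Psmb10* and of *Psme1* are both low on control replicates 3 and 4, whereas those of *Psmb2* run in opposite directions on control replicate 2.

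The range over the arrays was smaller for the proteasome genes than for all genes. Its median over the 7 arrays was 0.90 log2 units, against 1.20 for all genes, and over the 5 arrays 0.57 against 0.69. A range above 1 was found for 12 genes (44.4%) against 62.0% of all genes, and a range above 2 for 3 genes (11.1%), *Psmd6*, *Psmb10* and *Psme1*, against 23.6%. Over the proteasome genes alone, control replicates 3 and 4 correlated with the other arrays at 0.944 to 0.974, and the other 5 among themselves at 0.974 to 0.993. These values describe 27 genes that share arrays and normalisation. The proteasome genes were brighter than most, with a median mean signal at percentile 67.4 of all genes, and whether their brightness accounts for the smaller range was not tested.

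Within the 5 arrays without control replicates 3 and 4, control replicate 2 was the highest array for 13 of the 27 genes, against 18% of all genes, and PFJ replicate 3 was the lowest for 10, against 27.5%. With scaling to equal medians these counts were 10 (13.1% of all genes) and 21 (52.4%), and with the authors' normalised values 17 (24.4%) and 10 (31.8%).

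Of 29 other genes of the ubiquitin-proteasome pathway and antigen presentation with a probe, 13 were kept. PFJ minus control was above 0 for 8 of them and below 0 for 5 on 7 arrays, and for 3 and 10 on 5 arrays, with 0 at an unadjusted p under 0.05 in either fit. On control replicates 3 and 4, 7 of the 13 lay below all other arrays and 1 above, where the shares of all genes were 30.2% and 26.8%. The gene above was *Vcp*, the unfoldase that extracts ubiquitin-tagged proteins, with 14.01, 14.00, 14.46 and 14.33 in controls and 13.90, 13.72 and 14.11 with PFJ. *H2-K1*, a class I heavy chain that presents proteasome-made peptides, read 13.36, 13.65, 9.80 and 9.80 in controls and 12.55, 13.67 and 12.89 with PFJ. It was low on control replicates 3 and 4. Of the 5 tested antigen presentation partners, 2 lay below all other arrays there and 3 on neither side. The share of all genes below was 30.2%. Besides *H2-K1*, the other gene below was *Tap1*, detected on 2 control arrays and 1 PFJ array. It read 5.78 and 5.53 on control replicates 3 and 4, under the lowest detected values there (6.22 and 6.38). *Tap1* was thus kept through other arrays, and its place in this count and among the 7 of 13 lends no support. *Irf1*, a transcription factor of the interferon response, lay between 8.01 and 8.71 on the 7 arrays, with control replicates 3 and 4 inside the range of the others. Of the leukocyte markers, 2 of 12 with a probe were tested, and their log2 summed signal on control replicates 3 and 4 (9.75 and 10.57) enclosed that of the other arrays (9.85 to 10.41), and *Ptprc* was not detected on any array.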

How the data were processed

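The methods state that 4 RNA samples of each condition were hybridised to Illumina MouseRef-8 arrays. The deposited data hold 7 arrays, 4 control and 3 PFJ. The deposited intensity values are mean bead signals per probe, which the authors extracted with Illumina software (BeadStudio in the methods, GenomeStudio 2011.1 in the submitters' processing notes) without background subtraction or normalisation. The deposited detection p-value compares each signal with negative control beads. A second deposited table holds intensity values that the authors normalised by the rank invariant method and served as an alternative. The methods state that outlier samples were removed by clustering, without naming them. Signals were background corrected and quantile normalised (neqc, offset 16, limma 3.58.1, R 4.3.3). Probes detected at p under 0.01 on at least 3 arrays were kept, with the brightest kept probe per gene. Groups were compared with lmFit and eBayes of limma, with Benjamini-Hochberg adjustment over 3734 genes. This was tested on simulated data with the spread of the arrays other than control replicates 3 and 4. The simulation thus does not cover the spread that these 2 arrays add to the fit on 7 arrays. Between 4689 and 5137 probes were detected per array, and the number of arrays limits the precision. Of 25697 probes, 23141 had 1 gene symbol, none had several and 2556 were not listed. Per-array values are given for catalytic and activator genes and, per class, for the 2 genes with the lowest p and the 2 with the widest range. *Psmd10*, *Psmd12*, *Vcp*, *H2-K1*, *Irf1* and *Tap1* were added after their values were seen. *Umod*, *Alas2* and *Slc4a1* are also outside this choice and come from the marker lists, *Umod* as 1 of 16 kidney markers with a probe. Members, gene lists and the comparison without control replicates 3 and 4 were chosen with earlier results of these data known. Alternatives covered normalisation, offset, detection filter, probe choice, replicate block and leaving out arrays.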

Additional observations from a re-analysis of the deposited data

Results flagged for a closer look

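Among the 27 proteasome genes, 1 had a control array far from the other 3. *Psmb5* read 11.13 on control replicate 2, where the nearest control array was at 10.41 and the farthest at 10.27. About 1 in 20 groups of 4 arrays would be picked out by chance, and 27 were examined.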

How the results depend on the processing

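The median log2 fold change of the proteasome genes moved by less than the spread between arrays (SD 0.15) under every alternative. It was -0.13 with scaling to equal medians, where the median of all genes was -0.18, and ran from -0.00191 to 0.16 when arrays were left out in turn. The number of proteasome genes at an unadjusted p under 0.05 was small in all settings, and the cause of its shifts was not tested. With no detection filter, which retains all 45 genes, 1 was higher (*Psmd4*) and 3 were lower (*Psmb2*, *Psmd2* and *Psme3*). Of all 16110 genes in that setting, 445 were higher and 356 lower. The probe of *Psme3* was detected on no array and that of *Psmd4* on 1, so that their values lie at or near background. With an offset of 50, 0 proteasome genes were lower, and on 5 arrays, with the filter applied again or not, 2 were lower. Leaving out single arrays gave 0 to 1 lower, with 0 without control replicate 2, control replicate 3, PFJ replicate 1 or PFJ replicate 3, *Psmc2* without control replicate 1, *Psmd2* without control replicate 4 and *Psme4* without PFJ replicate 2. Over all genes, scaling to equal medians put 2 past the adjusted threshold of limma as higher, and leaving out arrays 0 to 1 as higher and 0 to 1 as lower. The split at the unadjusted threshold was 81 higher and 97 lower, 30 and 159 with scaling, and 44 and 133 with the authors' normalised values. It was 306 and 244 without control replicate 1, 264 and 224 without control replicate 2, 28 and 33 without control replicate 3, 37 and 39 without control replicate 4, 52 and 63 without PFJ replicate 1, 61 and 68 without PFJ replicate 2, and 29 and 30 without PFJ replicate 3. The count below all other arrays on control replicates 3 and 4 was 4 with scaling, against 8.

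The direction of single log2 fold changes was less stable, although no adjusted p of a proteasome gene was below 0.302. Scaling gave -0.0477 for *Psma3*, -0.0240 for *Psmb7* and -0.13 for *Psmc3*. The mean over kept probes gave 0.15 for *Psmb2* and -0.0279 for *Psmb7*, and the authors' values gave 0.0113 for *Psmb4*. On 5 arrays the values were -0.48 for *Psma3*, -0.61 for *Psmb10*, -0.40 for *Psmc3*, 0.0214 for *Psmc4*, -0.0548 for *Psmd11*, -0.24 for *Psmd6*, -0.19 for *Psme1* (0.1075 with the filter applied again, which selects its other probe) and 0.00754 for *Psmg3*. Leaving out arrays in turn gave -0.0634 to 0.64 for *Psma3*, -0.00941 to 0.18 for *Psma7*, -0.0193 to 0.76 for *Psmb10*, -0.56 to 0.27 for *Psmb2*, -0.39 to 0.22 for *Psmb5*, -0.0330 to 0.0661 for *Psmb7*, -0.10 to 0.32 for *Psmc3* and -0.0733 to 0.0349 for *Psmg3*. The value of 0.27 for *Psmb2*, without control replicate 2, came from its other probe, which was then the brightest.

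Controls and PFJ arrays share replicate numbers in the labels, and the deviations of same-numbered arrays correlated at 0.09, 0.22 and 0.13. No differently numbered arrays were set beside them, so that these values cannot decide whether the numbers mark pairs. Over all genes tested, control replicate 1 correlated with PFJ replicate 1 at 0.979 and control replicate 2 with PFJ replicate 2 at 0.977. Control replicate 1 with PFJ replicate 2 gave 0.966, and control replicate 2 with PFJ replicate 1 gave 0.971. Control replicate 3 with PFJ replicate 3 gave 0.776. Pairing by number was not tested, and the main fit left it out. With the replicate block, 2 proteasome genes were lower at an unadjusted p under 0.05 (*Psmd2* and *Psme4*), and the log2 fold changes of *Psma3* and *Psmc3* were -0.0429 and -0.00829. Probes near background, such as those of *Psme4*, *Psmd6* and *Psmd2*, limit what can be read from their differences.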
